A study of Brachypodium distachyon with 214 samples.

Results

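Phenylalanine ammonia-lyase (PAL) is encoded by a gene family of 8 loci in the annual grass Brachypodium distachyon, and the family is described here across leaves of well-watered and droughted plants. The members were Bradi3g49250, Bradi3g49260, Bradi3g49270, Bradi3g49280, Bradi3g48840, Bradi3g47110, Bradi3g47120 and Bradi5g15830, a list of locus names that used no measured value. All 8 were among the 32523 rows of the count table, and all 8 were among the 26164 genes that were tested.

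PAL removes the amino group of phenylalanine and yields cinnamic acid, the entry step of the phenylpropanoid pathway. Cinnamate 4-hydroxylase (C4H) and 4-coumarate:CoA ligase (4CL) act next, and their product is the source of lignin, of the hydroxycinnamates that cross-link grass cell walls, and of flavonoids. Grasses also hold enzymes of the PAL family that accept tyrosine, and in many plants PAL transcripts are known to rise after wounding and infection.

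Messenger RNA of leaf tissue was measured in 214 plants, with 1 library per plant. The plants belonged to 2 inbred accessions, Bd21, the source of the reference genome, and Bd3-1. Soil of control plants stayed at 85% of field capacity, its water content after drainage, and drought plants were dried from day 33 after sowing for 6 days, to 55%. The groups were Bd21 control (n = 48), Bd21 drought (n = 49), Bd3-1 control (n = 58) and Bd3-1 drought (n = 59), grown in a growth chamber in 4 experiment batches that each held plants of all 4 groups.

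Counts came from tags at the 3′ end of transcripts, so that a level does not grow with transcript length. Setting members beside each other also assumes that their 3′ ends are annotated equally well, which was not checked. Levels are given as normalized counts, the counts scaled to a library of 1.88 M (mega) counts. Totals per library had a median of 1.92 M and ran from 0.525 M to 8.37 M, where the highest was Bd21 control replicate 10 and the next held 3.05 M. Plastid sequences took between 4.76% and 9.66% of the counts in all libraries, and the dehydrin genes Bradi1g37410 and Bradi3g43870, which the study used as drought genes, were 16.5-fold and 9.62-fold higher with drought in Bd21 and 22.7-fold and 10.7-fold higher in Bd3-1. Their control means were near 0, at 0.18 and 0.36 normalized counts in Bd21 and 0.17 and 0.29 in Bd3-1, so the folds are imprecise. The study named both in a co-expression module found under drought in these plants, so they are no independent check. On the first principal component the 97 Bd21 libraries ran from 25.6 to 55.8, and 116 of the Bd3-1 libraries from -51.6 to -21.7. The library labelled Bd3-1 drought replicate 59 was at 48.2, among those of Bd21. It is kept under its label, and the main values of its group are also given without it. Reads of both accessions were matched to Bd21 transcripts, so a lower count in Bd3-1 and a difference in sequence cannot be told apart, and in whole leaves less transcript per cell and fewer expressing cells cannot be told apart either.

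Of the 8 members, 3 supplied nearly all PAL counts of the leaf. Bradi3g49260 had the highest count of the family in 214 of 214 libraries and made up 72.4% ± 5.20 (SD) of the family's counts in Bd21 control, 71.1% ± 4.49 in Bd21 drought, 72.7% ± 6.00 in Bd3-1 control and 74.7% ± 5.40 in Bd3-1 drought. Its mean level over all libraries was above that of 95.3% of tested genes. Bradi5g15830 (mean 34.6 normalized counts over all libraries) and Bradi3g49250 (31.9) lay above 76.7% and 75.2% of tested genes. The other 5 loci together held between 2.31% and 2.94% of the family's counts in the 4 groups, on average.

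The low members differed in how often they were seen at all. Bradi3g49280 was above 0 in 196 of 214 libraries, Bradi3g47120 in 160, Bradi3g48840 in 125, Bradi3g47110 in 88 and Bradi3g49270 in 34. Bradi3g49270, although it lies between Bradi3g49260 and Bradi3g49280 in the order of the locus names, had at most 3 counts in any library and 40.5 counts in all 214 libraries together. A count of 0 allows up to 3 counts in a library, so most values of Bradi3g48840 (at most 3 counts in 208 libraries) and of Bradi3g47110 (191 libraries) lie at or under what a single library can resolve.

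**Figure D1:**
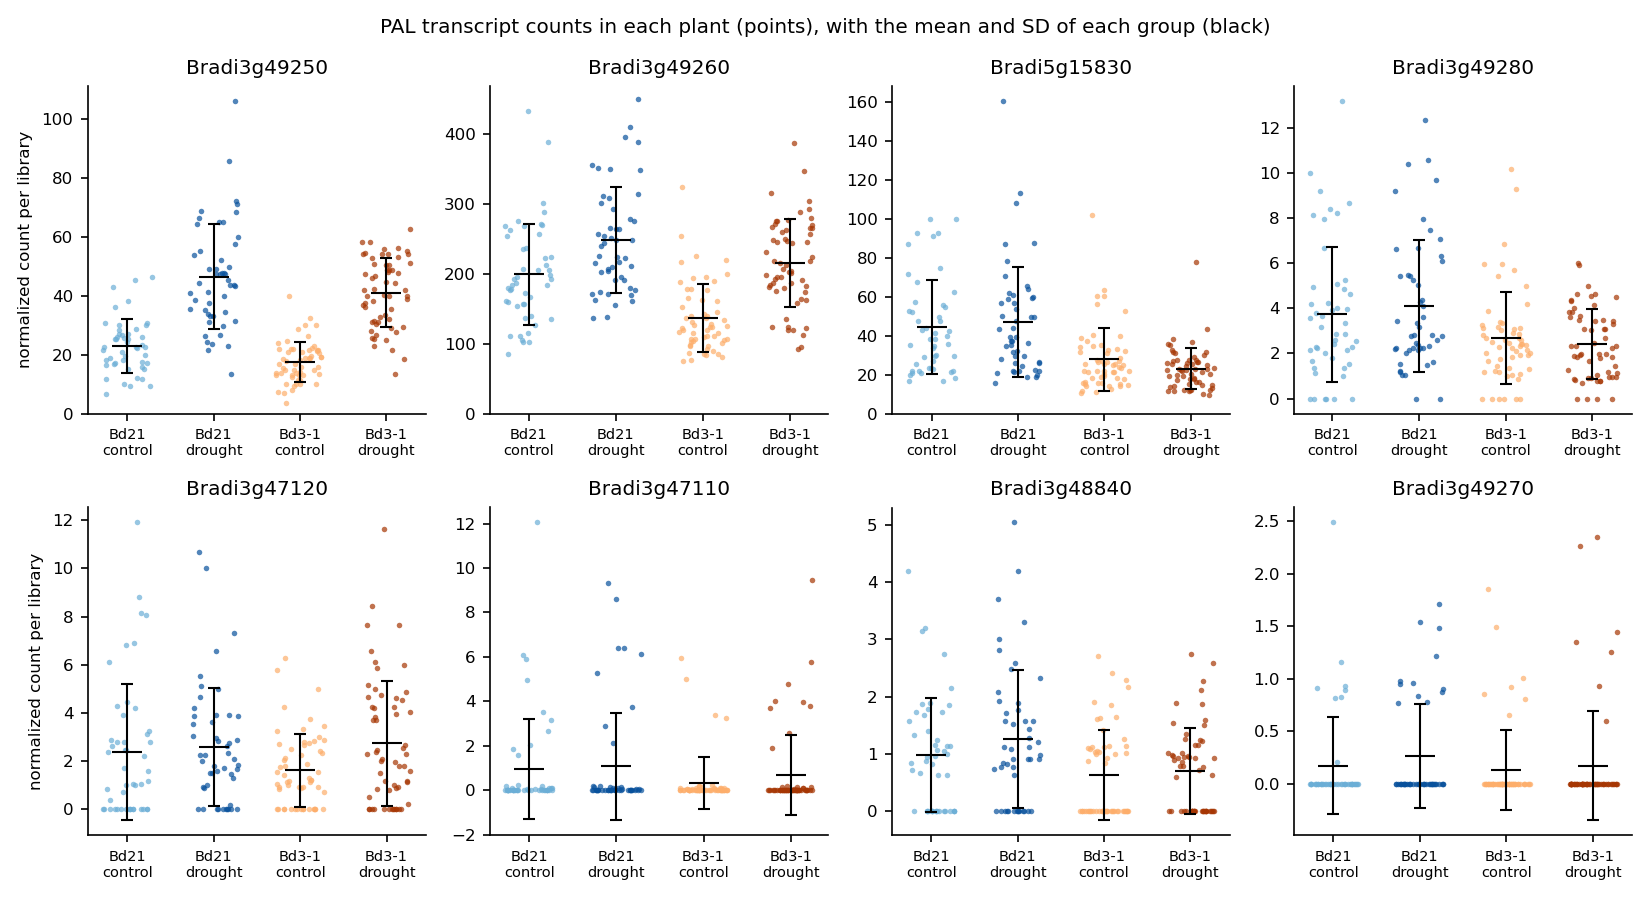
Normalized count of each of the 8 PAL loci (vertical axes, each with its own range) in every plant of the 4 groups (horizontal axes); each point is 1 plant and black bars give the mean and SD. Bradi3g49250 has group medians of 22.6 and 17.3 in control plants and 44.3 and 41.9 in drought plants, whereas Bradi5g15830 has medians of 38.3 and 39.1 in Bd21 and 24.5 and 22.3 in Bd3-1.

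Several members lie side by side on chromosome 3 by their locus names, and reads that matched more than 1 transcript had been divided among them, which leaves estimates that are not whole numbers. Over all rows 13.7% of the estimates above 0 were not whole, and for the median tested gene the percentage was 0%. It was 93.2% for Bradi3g47110 (82 of 88 libraries), 85.6% for Bradi3g47120 (137 of 160), 56.5% for Bradi5g15830 (121 of 214), 35.2% for Bradi3g49280 (69 of 196) and 21.03% for Bradi3g49260 (45 of 214). Bradi3g49270 had 4 such estimates among 34 (11.8%), Bradi3g48840 had 0 among 125, and Bradi3g49250 had 1 among 214. These last 2 loci thus held almost no divided reads, though a shared read given wholly to 1 locus would leave a whole estimate. The percentage of estimates that were not whole also differed between groups. For Bradi5g15830 it was 62.5% in control and 69.4% in drought plants of Bd21, against 37.9% and 59.3% in those of Bd3-1. For Bradi3g49260 it was 29.2% and 26.5% in Bd21, against 19.0% and 11.9% in Bd3-1. Whether this imbalance affects the comparisons of these loci between groups was not tested.

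The divided reads stayed within the family. An estimate was called whole within 0.005 of a whole number, and a sum within 0.015. Of the 165 libraries in which any member was not whole, the sum over the 8 rows was whole in 164. An estimate that is nearly whole can pass the wider limit of a sum with any partner, so the sums were also taken over estimates more than 0.1 from a whole number, a limit chosen after the data had been seen. Of the 94 libraries with such an estimate, the sum over the 8 rows was whole in 93. For Bradi5g15830, on chromosome 5, the best single partner was Bradi3g47120 on chromosome 3: adding it made 18 of 45 such estimates whole, and adding all 8 made 44 whole. The sum over the family is therefore little touched by the division of reads, while the split between Bradi5g15830 and the low loci rests on it.

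The neighbours Bradi3g47110 and Bradi3g47120 had almost no library in common. Bradi3g47120 alone reached 1 count in 142 libraries and Bradi3g47110 alone in 31, whereas 40 libraries had neither at 1 count and 1 library had both. Within groups their levels were negatively correlated, with Pearson's r of -0.54 in Bd21 control, -0.62 in Bd21 drought, -0.34 in Bd3-1 control and -0.58 in Bd3-1 drought (permutation test, adjusted p = 3.09e-04, 1.20e-04, 0.0329 and 1.20e-04). Spearman's rho was -0.42, -0.33, -0.02 and -0.43, with adjusted p of 0.0187, 0.0934, 0.945 and 0.00624. Without the 2 plants farthest from the median of Bradi3g47110, r was -0.52, -0.56, -0.23 and -0.56, and in Bd3-1 control it no longer passed (adjusted p = 0.250). After batch and plate means were removed it was -0.64, -0.61, -0.38 and -0.60. Since 93.2% and 85.6% of their estimates rest on divided reads, each locus alone is uncertain. A shared read given to 1 of them is taken from the other, so their negative r cannot be told apart from the division of reads. Their sum had means of 3.30, 3.65, 1.94 and 3.42 normalized counts in the same order of groups. It also rests on divided reads. Of the Bradi3g47110 estimates more than 0.1 from a whole number, adding Bradi3g47120 made 7 of 33 whole. For Bradi3g47120 the best single partner was Bradi5g15830, with 18 of 75. Adding all 8 made 33 and 74 whole.

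**Figure D2:**
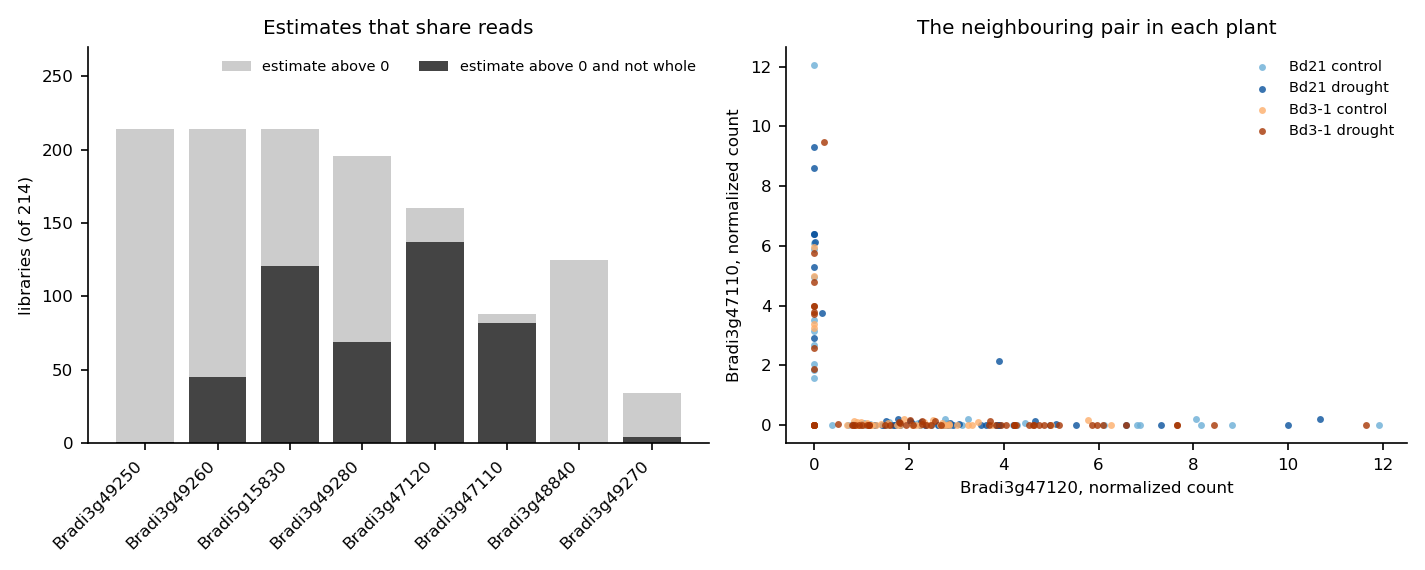
Left, number of libraries (vertical axis) with an estimate above 0 (grey) and with one that is not whole (black) for each PAL locus; right, normalized counts of Bradi3g47110 against Bradi3g47120 in each plant, coloured by group. Bradi3g49250 and Bradi3g48840 hold 1 and 0 estimates that are not whole, and in the right panel nearly all plants lie along 1 of the axes.

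The family as a whole had more transcripts in drought than in control plants, and more in Bd21 than in Bd3-1. The sum over the 8 loci was 274 ± 96.7 normalized counts in Bd21 control, 351 ± 111 in Bd21 drought, 188 ± 64.5 in Bd3-1 control and 287 ± 73.6 in Bd3-1 drought (mean ± SD). The ratio of these means was 1.28 for drought over control in Bd21 and 1.53 in Bd3-1, and 1.46 for Bd21 over Bd3-1 in control plants and 1.23 in drought plants. Single plants ranged widely, from 114 to 677 over the 4 groups, so the groups overlapped throughout. Without replicate 59 the mean of Bd3-1 drought was 284 ± 70.1, and the ratios that use it were 1.51 and 1.24. The sums are a description and were not tested.

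In Bd21, drought was tested against control to ask which members responded to soil drying, and 2 of the 8 rose. These were Bradi3g49250, which about doubled, and Bradi3g49260. The other 6 did not pass the test in either direction, at 0 members lower by edgeR's quasi-likelihood test (0 also at an unadjusted p under 0.05, and 0 by DESeq2 and limma-voom). Over all tested genes 22.3% passed in this comparison, 11.6% as higher and 10.7% as lower with drought, against 2 of 8 here. The median log2 fold change of the 8 members was 0.24, and that of all tested genes was 0.01.

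Bradi3g49250 ran from 6.80 to 46.5 normalized counts in Bd21 control plants, with a median of 22.6. Under drought it ran from 13.3 to 106, with a median of 44.3. The groups overlapped, yet 47 of 49 drought plants lay above the control median and 23 lay above every control plant. The mean was 22.9 ± 9.06 in control and 46.4 ± 17.8 in drought plants, a 2.01-fold difference (log2 1.01, SE 0.11, adjusted p = 5.48e-13, edgeR's quasi-likelihood test). It held in each of the 4 experiment batches fitted alone, at 1.57-fold to 2.54-fold, and passed the threshold in 4 of 4.

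Bradi3g49260, the main PAL transcript, moved less. Control plants of Bd21 ran from 85.6 to 434 with a median of 190.0, and drought plants from 137 to 450.2 with a median of 239.5. The ranges nearly coincided: 38 of 49 drought plants lay above the control median, and 1 lay above every control plant. The difference was 1.25-fold (log2 0.32, SE 0.09, adjusted p = 0.00503). All 4 batches had it higher with drought, at 1.08-fold to 1.39-fold, and 1 of them passed the threshold alone.

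Bradi5g15830, the PAL locus that the study placed in a co-expression module of Bd21 together with C4H, had a median of 38.3 in Bd21 control plants (16.5 to 99.9) and of 39.1 in Bd21 drought plants (15.4 to 161). The groups overlapped almost fully, with 25 of 49 drought plants above the control median. The log2 fold change was 0.08, with a 95% interval from -0.21 to 0.36 (adjusted p = 0.787). The 5 low members had log2 fold changes from 0.09 to 0.44 and adjusted p from 0.427 to 0.933.

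In Bd3-1, the same question gave 3 of the 8 members higher with drought, against 30.8% of all tested genes in either direction, 16.7% as higher and 14.1% as lower. Bradi3g49250 and Bradi3g49260 rose here too, and Bradi3g47120 rose on few counts. The median log2 fold change of the 8 was 0.38, beside 0.02 for all tested genes. By edgeR, 0 members were lower at the adjusted threshold and 1, Bradi5g15830, at an unadjusted p under 0.05 (0 also by DESeq2 and limma-voom at the adjusted threshold).

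Bradi3g49250 had a median of 17.3 in Bd3-1 control plants (3.43 to 40.0) and of 41.9 in Bd3-1 drought plants (13.4 to 62.6). It was above the control median in 58 of 59 drought plants and above every control plant in 32. The difference was 2.31-fold (log2 1.21, SE 0.09, adjusted p = 4.23e-24), and 2.05-fold to 3.08-fold in the 4 batches alone. Without replicate 59 it was 2.27-fold (adjusted p = 2.07e-23). Of the members, this locus had the largest fold change with drought among those that passed in either accession, and almost no divided reads.

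Bradi3g49260 had a median of 124 in Bd3-1 control plants (75.0 to 324) and of 213 in drought plants (92.8 to 387). Again the groups overlapped, with 52 of 59 drought plants above the control median and 2 above every control plant. The difference was 1.58-fold (log2 0.66, SE 0.08, adjusted p = 1.45e-11), and 1.41-fold to 1.86-fold in the 4 batches alone, each past the threshold. Without replicate 59 it was 1.55-fold (adjusted p = 5.77e-11).

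Bradi3g47120 rose 1.68-fold in Bd3-1 (log2 0.75, SE 0.25, adjusted p = 0.0134), from a mean of 1.61 ± 1.52 to 2.73 ± 2.59 normalized counts. Its values ran from 0 to 6.26 in control and from 0 to 11.6 in drought plants, where the highest was replicate 59. Without that library the fold was 1.59 (adjusted p = 0.0279). With limma-voom the adjusted p was 0.141 and the call was lost, and over all alternatives it ran from 0.0112 to 0.141.

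Bradi5g15830 pointed the other way in Bd3-1. Its median was 24.5 in control plants (10.5 to 102) and 22.3 in drought plants (9.42 to 78.1), with 35 of 59 drought plants below the control median. The log2 fold change was -0.27 (95% interval -0.50 to -0.04, adjusted p = 0.0741), and all 4 batches were negative, from -0.46 to -0.11. The highest drought plant was again replicate 59, at 78.1, and the highest of the other 58 was 43.2. Without it the fold change was -0.34 (SE 0.11, adjusted p = 0.0142) and passed the threshold. The call depends on the setting, with adjusted p from 0.011 to 0.167 over the alternatives.

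**Figure D3:**
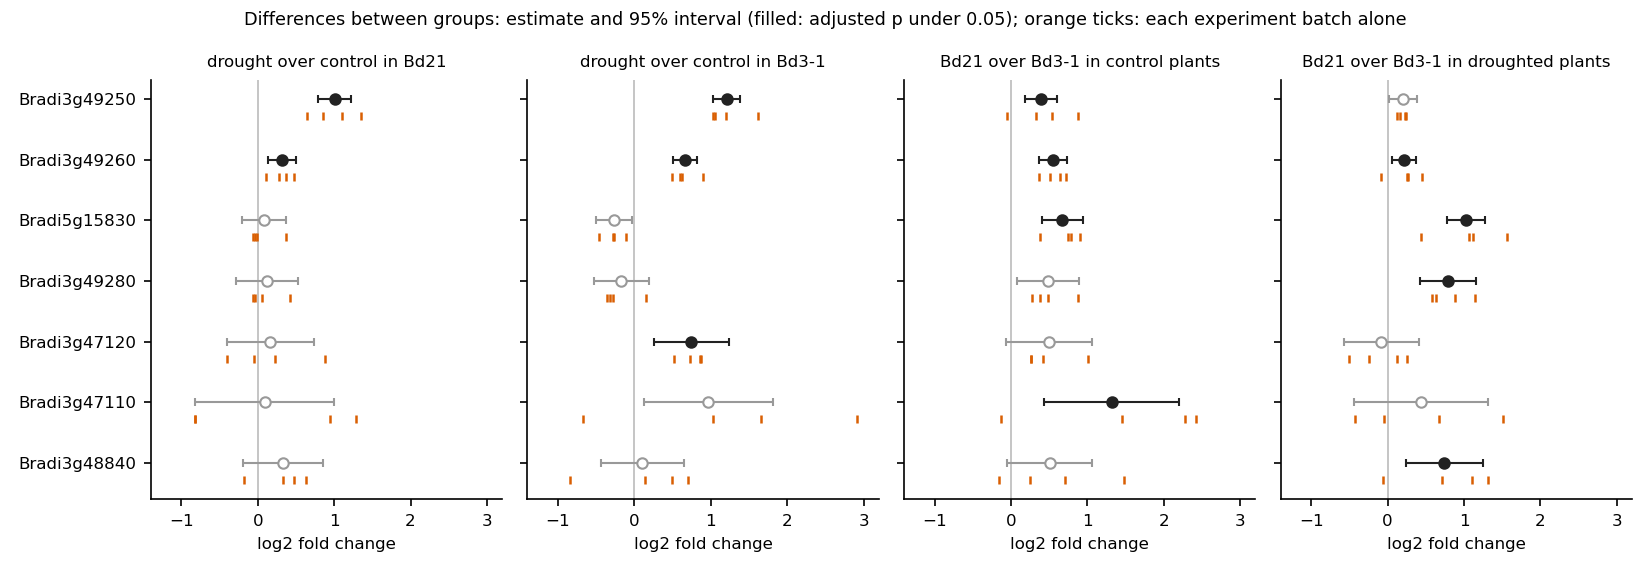
Log2 fold change (horizontal axes) of 7 PAL loci (rows; Bradi3g49270, with at most 3 counts in any library, is not drawn) in the 4 comparisons between groups; circles give the estimate with its 95% interval, filled where the adjusted p was under 0.05, and orange ticks give each of the 4 experiment batches fitted alone. Bradi3g49250 sits at 1.01 and 1.21 for drought, and Bradi5g15830 at 0.67 and 1.03 for Bd21 over Bd3-1.

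Between the accessions, control plants were compared to ask which members differ by genotype without drought, and 4 of the 8 were higher in Bd21, against 33.5% of all tested genes in either direction, 18.0% as higher and 15.6% as lower in Bd21. They were Bradi3g49250, Bradi3g49260, Bradi5g15830 and Bradi3g47110. The median log2 fold change of the 8 was 0.50, and that of all tested genes 0.01. By edgeR 0 members were lower in Bd21 (0 also at an unadjusted p under 0.05 and by DESeq2 and limma-voom).

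Bradi5g15830 was 1.59-fold higher in Bd21 control plants (log2 0.67, SE 0.14, adjusted p = 1.84e-05), at a mean of 44.3 ± 24.1 against 27.8 ± 16.0. The medians were 38.3 and 24.5, and 35 of 48 Bd21 plants lay above the Bd3-1 median, while 0 lay above the highest Bd3-1 plant. Bradi3g49260 was 1.46-fold higher (log2 0.55, SE 0.09, adjusted p = 2.70e-07), at 199 ± 71.8 against 137 ± 48.8, with 41 of 48 plants above the Bd3-1 median. For these loci the 4 batches alone gave 1.295-fold to 1.87-fold and 1.29-fold to 1.65-fold.

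Bradi3g49250 was 1.31-fold higher in Bd21 control plants (log2 0.39, SE 0.11, adjusted p = 0.00219), at 22.9 ± 9.06 against 17.6 ± 6.81. Its batches did not all point one way, with 0.96-fold in batch 1 and 1.26-fold to 1.83-fold in the other 3. Bradi3g47110 was 2.49-fold higher (log2 1.32, SE 0.45, adjusted p = 0.0155) on 49.01 counts in 48 Bd21 libraries and 18.3 in 58 Bd3-1 libraries, and the median was 0 in both groups. That call was lost with DESeq2 (adjusted p = 0.406) and with limma-voom (0.278), and adjusted p ran from 0.00921 to 0.406 over the alternatives.

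In drought plants, 4 of the 8 members were higher in Bd21, against 35.6% of all tested genes in either direction, 18.9% as higher and 16.7% as lower in Bd21. They were Bradi5g15830, Bradi3g49280, Bradi3g48840 and Bradi3g49260. The median log2 fold change was 0.50, beside 0.01 for all tested genes. By edgeR 0 members were lower in Bd21 (0 also at an unadjusted p under 0.05 and by DESeq2 and limma-voom).

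Bradi5g15830 was 2.04-fold higher in Bd21 drought plants (log2 1.03, SE 0.13, adjusted p = 1.83e-11), at 47.0 ± 28.4 against 23.1 ± 10.7. Of the Bd21 plants 39 of 49 lay above the Bd3-1 median and 6 above the highest Bd3-1 plant. Without replicate 59 the fold was 2.11 (adjusted p = 6.10e-13). The 4 batches alone gave 1.36-fold to 2.95-fold, and 3 of them passed the threshold.

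Bradi3g49280 was 1.72-fold higher in Bd21 drought plants (log2 0.79, SE 0.19, adjusted p = 2.78e-04). Its values ran from 0 to 12.3 in Bd21 with a median of 2.82, and from 0 to 5.98 in Bd3-1 with a median of 2.24, and 12 of 49 Bd21 plants lay above every Bd3-1 plant. Bradi3g48840, the locus with no divided reads, was 1.67-fold higher (adjusted p = 0.0163) on 65 counts in 49 libraries against 44 in 59. That call was lost with limma-voom (adjusted p = 0.0511), in a range of 0.0147 to 0.0852 over the alternatives. Without replicate 59 the folds of these loci were 1.75 and 1.69 (adjusted p = 1.80e-04 and 0.0147).

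The main transcript differed little between the accessions under drought. Bradi3g49260 was 1.16-fold higher in Bd21 (log2 0.21, SE 0.08, adjusted p = 0.0285), at 249 ± 75.6 against 216 ± 62.8, and 30 of 49 Bd21 plants lay above the Bd3-1 median. In the 4 batches alone it ran from 0.942-fold to 1.37-fold, and without replicate 59 it was 1.17-fold (adjusted p = 0.0193). Bradi3g49250 did not pass, at 1.15-fold (95% interval of the log2 value 0.02 to 0.38, adjusted p = 0.0883), with medians of 44.3 and 41.9.

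The interaction of genotype and drought asks whether a drought response differed between the accessions, and 0 of the 8 members passed its threshold of 0.1 in edgeR, beside 1.65% of all tested genes, 0.550% with the higher and 1.10% with the lower log2 fold change in Bd21. At an unadjusted p under 0.05 there was 1, and by DESeq2 and limma-voom 0 passed. That 1 was Bradi3g49260, whose drought response was 0.789-fold as large in Bd21 as in Bd3-1 (log2 -0.34, 95% interval -0.59 to -0.10, adjusted p = 0.201), and negative in each of the 4 batches. For Bradi5g15830 the difference of the drought responses was 0.35 (95% interval -0.02 to 0.72, adjusted p = 0.532), and 0.40 without replicate 59 (0.03 to 0.77, adjusted p = 0.412). For Bradi3g49250 it was -0.20 (-0.48 to 0.08, adjusted p = 0.718). So the larger fold of Bradi3g49260 and Bradi3g49250 in Bd3-1 was not shown to differ from that in Bd21.

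With a rise of Bradi3g49250 and little movement of Bradi5g15830, the order of these members within a leaf changed with drought. Bradi5g15830 was above Bradi3g49250 in 38 of 48 Bd21 control plants and in 45 of 58 Bd3-1 control plants. Under drought Bradi3g49250 was the higher in 25 of 49 Bd21 plants and in 52 of 59 Bd3-1 plants. As a share of the family's counts, Bradi3g49250 held 9.07% ± 4.00 in control and 13.6% ± 4.44 in drought plants of Bd21, and 9.98% ± 4.06 and 14.8% ± 4.67 in those of Bd3-1. Bradi5g15830 held 15.6% ± 4.51 and 12.7% ± 4.15 in Bd21, and 14.4% ± 4.62 and 8.22% ± 3.12 in Bd3-1. Without replicate 59, Bradi3g49250 was the higher in 52 of 58 Bd3-1 drought plants, and the shares there were 14.9% ± 4.70 for Bradi3g49250, 74.8% ± 5.35 for Bradi3g49260 and 8.07% ± 2.94 for Bradi5g15830. These counts of plants and shares are a description and were not tested.

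**Figure D4:**
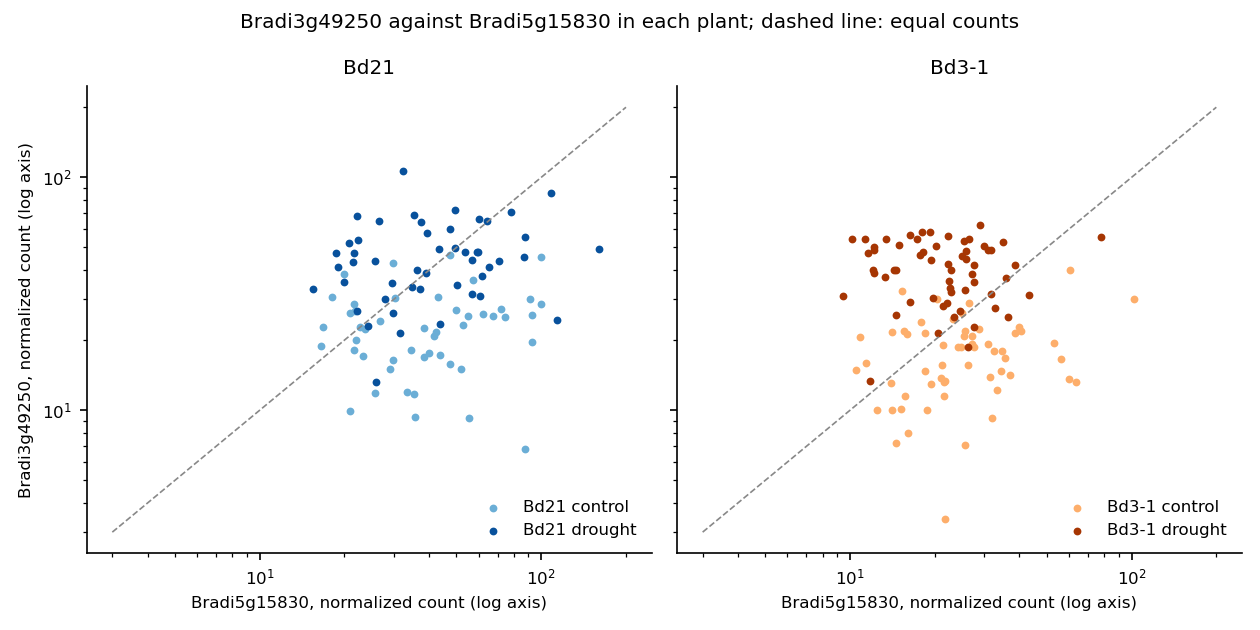
Normalized count of Bradi3g49250 (vertical log axis) against Bradi5g15830 (horizontal log axis) in each plant of Bd21 (left) and Bd3-1 (right), with control plants in the light and drought plants in the dark colour; the dashed line marks equal counts. Of the Bd3-1 plants, 13 of 58 control plants and 52 of 59 drought plants lie above the line.

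Among the 3 expressed members, plants of the same group differed most in Bradi5g15830. Its coefficient of variation was 54.5% in Bd21 control, 60.5% in Bd21 drought, 57.6% in Bd3-1 control and 46.4% in Bd3-1 drought, where it was 35.7% without replicate 59. For Bradi3g49260 it was 36.0%, 30.4%, 35.7% and 29.1%, and for Bradi3g49250 39.6%, 38.4%, 38.6% and 28.5%. Part of this spread went with the experiment batch. Bradi5g15830 averaged 33.8 in batch 1 and 57.4 in batch 3 of the Bd21 control plants, and 35.2 in batch 2 and 73.6 in batch 3 of the Bd21 drought plants. Replicate 36 of Bd21 drought had the highest value of both Bradi5g15830 (161) and Bradi3g49260 (450.2), replicate 11 of Bd21 control had the highest of both in its group (99.9 and 434), and replicate 51 did so in Bd3-1 control (102 and 324). In Bd3-1 drought they were different plants, replicate 29 for Bradi3g49260 (387, with 18.0 for Bradi5g15830) and replicate 59 for Bradi5g15830.

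Bradi3g49260 and Bradi5g15830 varied together among plants of a group. Pearson's r of their log2 levels was 0.74 in Bd21 control, 0.78 in Bd21 drought, 0.64 in Bd3-1 control and 0.34 in Bd3-1 drought, with adjusted p of 1.20e-04 in the first 3 groups and 0.0384 in the last (permutation test, 144 relations, where 1e-05 is the smallest unadjusted p that the permutations can give). Spearman's rho was 0.74, 0.76, 0.60 and 0.28, with adjusted p of 2.06e-04 in the first 3 groups and 0.111 in the last. Without the 2 plants farthest from the median of Bradi3g49260, r was 0.71, 0.73, 0.53 and 0.25, and in Bd3-1 drought it no longer passed (adjusted p = 0.179). After batch and plate means were removed, r was 0.70, 0.82, 0.64 and 0.44. Without replicate 59, r in Bd3-1 drought was 0.29 (adjusted p = 0.0393 over the 6 relations recomputed). The difference of r between the groups was not tested. Both genes held reads divided within the family, in 21.03% and 56.5% of their estimates. Of these estimates, 4 of Bradi3g49260 and 45 of Bradi5g15830 lay more than 0.1 from a whole number. Adding Bradi5g15830 made 0 of the 4 whole, and whether the 2 genes share reads with each other was not resolved.

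C4H, the enzyme after PAL, is represented here and below by Bradi2g31510, the locus that the text of the study names. Any other C4H locus was not looked for. Bradi2g31510 followed the same members. Its r with Bradi3g49260 was 0.75, 0.63, 0.59 and 0.35 in the same order of groups, and with Bradi5g15830 0.67, 0.72, 0.59 and 0.49, with adjusted p at most 0.0290 for all of these. The study had placed C4H and Bradi5g15830 in the same co-expression module of Bd21 on these plants. Their r in Bd21 is therefore no independent evidence. Spearman's rho ran from 0.37 to 0.73 for Bradi3g49260 and from 0.41 to 0.67 for Bradi5g15830, with adjusted p at most 0.0223. Without the 2 plants farthest from the median of the PAL locus r ran from 0.39 to 0.68 and from 0.42 to 0.69, and after batch and plate means were removed from 0.39 to 0.73 and from 0.53 to 0.70. Without replicate 59, r in Bd3-1 drought was 0.32 and 0.44. The locus Bradi3g49280, at a mean of 3.17 normalized counts, had r with C4H of 0.56 in Bd21 control, 0.73 in Bd21 drought and 0.49 in Bd3-1 drought, with adjusted p of 4.24e-04, 1.20e-04 and 3.60e-04 (rho 0.50, 0.67 and 0.50, adjusted p = 0.00365, 2.06e-04 and 6.00e-04). Its r was 0.59, 0.69 and 0.43 without the 2 farthest plants and 0.50, 0.69 and 0.48 after batch and plate means were removed, and in Bd3-1 control it did not pass (adjusted p = 0.199).

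The relations of Bradi3g49250 with C4H and Bradi5g15830 passed in 0 of 8 cases by r. Its r with C4H was -0.03, 0.28, 0.21 and 0.26, and with Bradi5g15830 0.09, 0.20, 0.26 and -0.03, with adjusted p from 0.141 to 0.933. Spearman's rho ran from -0.04 to 0.34 with C4H, where 1 of the 4 passed (Bd3-1 drought, adjusted p = 0.0465), and from -0.11 to 0.22 with Bradi5g15830. With its neighbour Bradi3g49260, r was 0.07 and 0.08 in the control groups and 0.39 and 0.37 in the drought groups (adjusted p = 0.0257 and 0.0222), with rho of 0.06, 0.04, 0.41 and 0.36. Without the 2 farthest plants the drought values were 0.35 and 0.24 (adjusted p = 0.0725 and 0.205) and no longer passed. After batch and plate means were removed they were 0.44 and 0.30 (adjusted p = 0.00809 and 0.0697), and 1 relation that had not passed, with Bradi5g15830 in Bd3-1 control, reached r = 0.33 (adjusted p = 0.0432). With Bradi3g49280 its r was 0.43 in Bd21 drought and 0.34 in Bd3-1 drought (rho 0.44 and 0.35, adjusted p of r 0.0145 and 0.0351), and 0.38 and 0.30 without the 2 farthest plants (adjusted p = 0.0450 and 0.103). With Bradi3g48840 it was 0.36 in Bd3-1 drought (rho 0.37, adjusted p of r 0.0290), and 0.31 without the 2 farthest plants (adjusted p = 0.0971). After batch and plate means were removed these 3 were 0.42, 0.37 and 0.45 and passed. In all, 37 of the 144 relations among members and C4H passed the adjusted threshold, 33 positive and 4 negative, and the 4 negative ones were those of Bradi3g47110 with Bradi3g47120. Those 4 cannot be told apart from the division of reads.

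**Figure D5:**
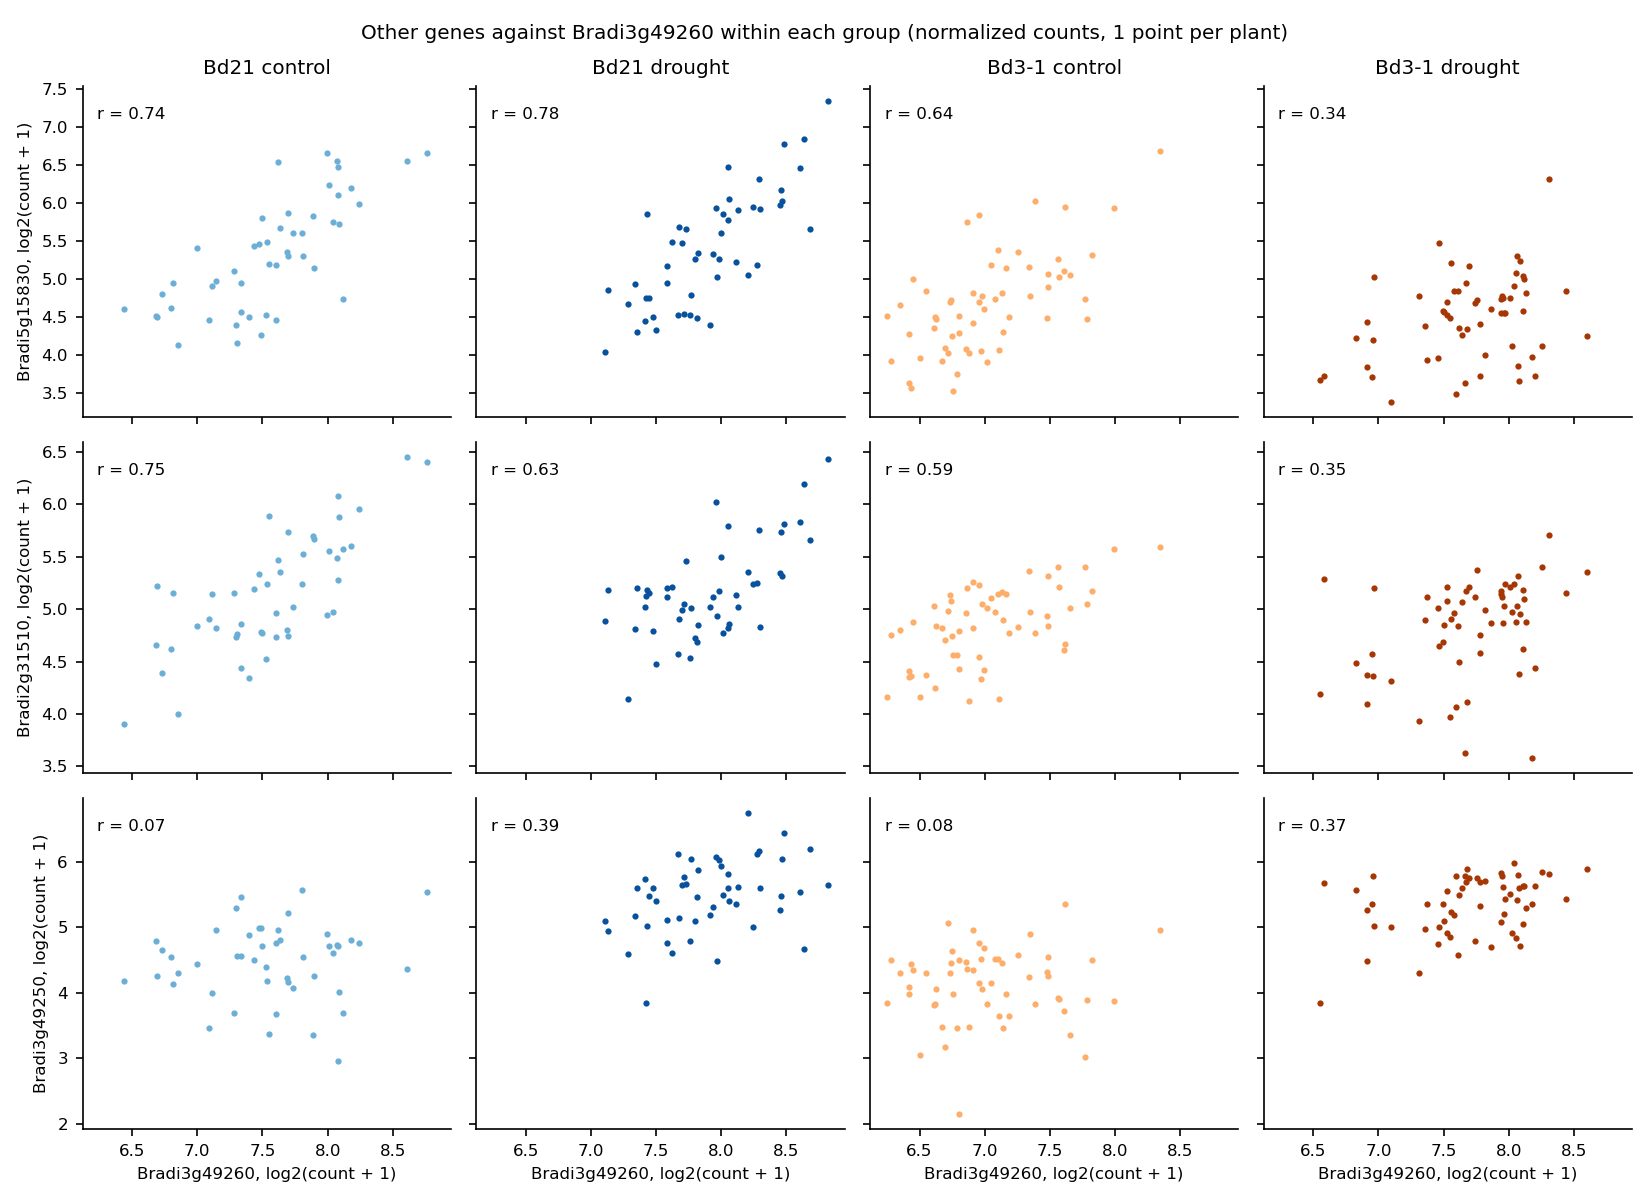
Log2 of the normalized count plus 1 of Bradi5g15830, of C4H (Bradi2g31510) and of Bradi3g49250 (rows, vertical axes) against that of Bradi3g49260 (horizontal axes) in the 4 groups (columns), 1 point per plant, with Pearson's r. Points rise together in the upper rows (r of 0.74 and 0.75 in Bd21 control) and form a level cloud in the control groups of the bottom row (r of 0.07 and 0.08).

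Genes of like pattern were ranked by r over the 214 libraries after each group mean was subtracted, among 11981 non-member genes with a mean of at least 10 normalized counts. For Bradi3g49260 the nearest were Bradi1g09240 (r = 0.80), Bradi2g53470 (0.79) and Bradi3g39420 (0.79), and the C4H locus Bradi2g31510 ranked at 116 with r = 0.58. For Bradi5g15830 the nearest were Bradi2g52260, which the study names as a polyphenol oxidase (PPO), at r = 0.75, Bradi2g60898 (0.75) and Bradi1g21330 (0.73), and C4H ranked at 20 with r = 0.62. For Bradi3g49250 the nearest reached 0.56 (Bradi2g12150), 0.55 (Bradi1g60320) and 0.55 (Bradi3g28350), and C4H ranked at 1067 with r = 0.16. These values share library depth and batch and are a description.

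Beyond PAL, 10 further loci that the study had named were followed, chosen by the study on these same plants and so no independent evidence of direction. Besides enzymes of the pathway, they include the MYB transcription factors Bradi2g11676 and Bradi1g64687 and the PPO Bradi2g52260. With drought in Bd21, 2 of 10 rose, 0 fell and 8 did not pass (1 was lower at an unadjusted p under 0.05, by edgeR). In Bd3-1, 3 rose, 2 fell and 5 did not pass. The risers were Bradi2g48450 and the MYB gene Bradi2g11676 in both accessions, and the MYB gene Bradi1g64687 in Bd3-1 alone. Of all tested genes 11.6% rose and 10.7% fell in Bd21, and 16.7% rose and 14.1% fell in Bd3-1. The median log2 fold change was 0.03 and -0.05. Flavanone 2-hydroxylase (Bradi2g48450), a flavonoid enzyme, rose 1.51-fold in Bd21 and 1.81-fold in Bd3-1 (adjusted p = 5.21e-04 and 1.06e-07). The C4H locus Bradi2g31510 did not pass, with a log2 fold change of -0.03 (95% interval -0.24 to 0.17, adjusted p = 0.866) in Bd21 and 0.00 (-0.14 to 0.15, adjusted p = 0.982) in Bd3-1, while Bradi3g49250 and Bradi3g49260 rose in the same plants.

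Between the accessions most of these 10 loci, which include the MYB genes and PPO, were higher in Bd21. In control plants 9 of the 10 were higher, with a median log2 fold change of 0.67, and in drought plants 9 of 10, with a median of 0.58, beside 18.0% and 18.9% of all tested genes. By edgeR 0 of the 10 were lower in Bd21, also at an unadjusted p under 0.05. C4H was 1.31-fold higher in Bd21 control (adjusted p = 2.06e-04) and 1.29-fold higher in Bd21 drought plants (adjusted p = 1.86e-04). The interaction passed for 1 of the 10, Bradi5g19250, named as a flavanone 3-hydroxylase (F3H), an enzyme of the flavonoid branch. It fell in Bd3-1 with drought, to 0.429-fold (adjusted p = 8.48e-06), and had a log2 fold change of 0.04 in Bd21 (adjusted p = 0.939). Without replicate 59 it fell to 0.381-fold in Bd3-1 (adjusted p = 1.65e-07). Of the 59 Bd3-1 drought libraries, 38 had at most 3 counts of it.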

How the data were processed

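As the labels and methods state, the authors cleaned reads with Trimmomatic 0.39 and cutadapt 2.10, matched them with Bowtie2 2.4.0 to primary transcripts and the plastome of Bd21, collapsed them by molecular identifier and estimated expected counts with RSEM 1.3.3. The deposited expected counts were not normalized. Here they were rounded and tested with edgeR 4.0.16 (quasi-likelihood F-test, TMM factors, R 4.3.3) on the 26164 genes counted above 0 in over 10 libraries, with Benjamini-Hochberg adjustment over all of them (threshold 0.05, interaction 0.1). Standard errors are the log2 fold change over the root of F. DESeq2 1.42.0, limma-voom (limma 3.58.1), RLE factors, other filters, the replicate block, batch and plate terms, a model of all groups and left-out libraries were alternatives. Correlations used log2(normalized count + 1) and 100000 permutations, 2-sided.

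The rule for the members used no measured value, but the members, lists and tests were chosen with earlier results of these data known. Named genes were the 8 members, 10 pathway loci named by the study, the dehydrins and the 3 genes of most like pattern per member with a mean of at least 10. Experiment batch and plate came from the study's table of plants. P-values measure the spread between plants of these 4 batches. The script for the test was checked on simulated counts. The reference table of 31335 RefSeq genes names none of these loci (0 matches), so no sequences or coordinates are printed.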

Additional observations from a re-analysis of the deposited data

Results flagged for a closer look

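The drought response of Bradi5g19250, a flavanone 3-hydroxylase locus of the pathway list, differed between the accessions: its log2 fold change was 1.28 above the one of Bd3-1 in Bd21 plants (SE 0.34, adjusted p = 0.0269, edgeR's interaction test), and 1.43 (adjusted p = 0.00817) without Bd3-1 drought replicate 59. The locus fell in Bd3-1 and did not pass in Bd21. Its median was 5.24 normalized counts in Bd3-1 control and 2.39 in Bd3-1 drought plants, and 21.7 and 19.8 in Bd21. It had at most 3 counts in 15 of 58 Bd3-1 control and 38 of 59 Bd3-1 drought libraries, against 0 of 48 and 2 of 49 in Bd21. In the batches fitted alone the interaction was positive in 4 of 4 and passed in 0. The fall in Bd3-1 passed in 2 of 4. The study chose the locus on these plants.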

How the results depend on the processing

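Of 343 log2 fold changes of members recomputed under the alternatives, 323 kept their direction and their side of the threshold, 7 lost the call, 5 gained it and 8 reversed, and all 40 recomputed levels moved by less than 1 SD. The calls of Bradi3g49250 and Bradi3g49260 held under each of these alternatives, as did those of Bradi5g15830 between the accessions. The 8 reversals were all of values that had not passed. For Bradi3g49270 with drought in Bd3-1 (0.03) they were -0.0619 with DESeq2, -0.0580 with limma-voom, -0.0866 with the replicate block, -0.00499 with batch and plate terms and -0.0643 without replicate 59, and between the accessions in control plants -0.0198 with limma-voom. With the replicate block, Bradi3g47120 between the accessions under drought was 0.0907 and the interaction of Bradi3g48840 was -0.0575. The cause was not tested.

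The filterByExpr filter tested 12413 genes between the accessions in control plants and 12628 in drought plants and called 5302 and 5867 of them, since fewer genes were tested. It left 3 members, of which 2 were called under drought. With the replicate number as a block, edgeR called 2, 3, 3, 3 and 0 members in the 5 comparisons in the order given, and 5606, 7916, 7795, 8442 and 317 genes. The numbers are not a pairing by design: deviations of same-numbered plants correlated over 0.1 in 27 of 48, 31 of 58, 23 of 48 and 14 of 49 pairs, and a plant correlated best with its own number in 6, 2, 7 and 1 of these. With the block, Bradi5g15830 with drought in Bd3-1 passed (adjusted p = 0.0110). Bradi3g47120 with drought in Bd3-1 (0.0659), Bradi3g47110 in control plants (0.225) and Bradi3g48840 in drought plants (0.0852) did not. The block changed no other call of a member.

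Among correlations, Bradi3g49250 in Bd21 control had r of -0.0430 with Bradi3g49260 and -0.0774 with Bradi5g15830 after batch and plate means were removed, and 0.0284 with C4H without the 2 farthest plants. Correlations, family sums and shares and pathway tests without replicate 59 were added after the data had been seen. Depth limits the 5 low members, whose counts were at most 3 in 139 of 214 libraries (Bradi3g49280) to 214 of 214 (Bradi3g49270).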
